A study of Mus musculus with 18 samples.

Results

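The genes of the mouse mitochondrial genome were followed through 3 tissues of the fetal mandible. They are the 37 genes that the count tables place on chromosome M, out of 38243 genes in all, and they comprise 2 ribosomal RNA (rRNA) genes, 13 messenger RNA (mRNA) genes and 22 transfer RNA (tRNA) genes. The material was mandibular bone, Meckel's cartilage (MC) and mandibular condylar cartilage, each cut out by laser capture microdissection from female C57BL/6 embryos at E16.5. Fgfr2+/S252W embryos, labelled Fgfr2S252W and Apert syndrome, carry 1 copy of an Fgfr2 allele with the S252W substitution, and control embryos (labelled WT, Fgfr2+/+) are littermates without it. There were 3 libraries of each genotype in each tissue, 18 libraries in all, which the sample codes place in 6 embryos.

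The mitochondrial genome is a small circle present in many copies per cell. It is transcribed from both strands into long RNAs that run through many genes, and tRNAs that lie between the other genes are cut out, which frees the rRNAs and mRNAs on either side. The rRNAs build the mitochondrial ribosome, the tRNAs serve it, and all of the mRNAs encode subunits of respiratory complexes I, III, IV and V, whose remaining subunits are nuclear encoded. Cartilage has no blood vessels and its cells are known to draw much of their energy from glycolysis.

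Between 8218548 and 15585778 fragments per library were assigned to genes, and 19.4 to 38.1% of them were mitochondrial. The tissue labels were checked against marker genes, as the sum of their CPM (a gene’s counts relative to the library total, on the usual CPM scale). The 10 bone markers reached 35634 to 87323 CPM in bone, 8836 to 24528 in condylar cartilage and 1384 to 6513 in MC. The 10 cartilage markers reached 34793 to 46968 CPM in condylar cartilage, but 478 to 7392 in MC and 286 to 855 in bone, so the libraries labelled MC held cartilage transcripts at a much lower level than the condylar libraries. Gm42418, a locus that collects fragments of cytosolic rRNA, took 24.1 to 39.4% of the MC counts, 5.58 to 9.33% of the bone counts and 10.9 to 20.2% of the condylar counts. Transcripts of 12 skeletal muscle genes summed to 973 and 941 CPM in control bone replicates 1 and 2, against 86.4 to 209 CPM in the other 4 bone libraries. Outside bone they reached 560 CPM in control MC replicate 2 and 540 and 289 CPM in control condylar replicates 3 and 2, against 9.12 to 216 CPM in the other 9 MC and condylar libraries. Their part in the MC and condylar values was not tested. Muscle is rich in mitochondria. The fits were also run without those 2 libraries, an alternative chosen after the values were seen, and calls of members that ended there are named. Control bone is then 1 library, replicate 3, and its spread is assumed to be that of the other groups.

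Several stretches of the genome that bear on how fragments could be assigned to single genes are printed from the reference transcripts (GENCODE M21, mouse GRCm38), 5′ to 3′, with coordinates on chromosome M. The first is the whole of mt-Tp, the tRNA for proline (chrM:15356-15422, minus strand), which held more counts than any other tRNA gene. The second is mt-Atp8 (chrM:7766-7969, plus strand), with the 43 bases that also belong to mt-Atp6 in capitals. The third is the junction of mt-Rnr2 and mt-Nd1 (chrM:2636-2790, plus strand), with the intervening tRNA gene mt-Tl1 in capitals and 40 bases of each neighbour around it.
mt-Tp: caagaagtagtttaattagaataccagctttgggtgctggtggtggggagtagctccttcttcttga
mt-Atp8: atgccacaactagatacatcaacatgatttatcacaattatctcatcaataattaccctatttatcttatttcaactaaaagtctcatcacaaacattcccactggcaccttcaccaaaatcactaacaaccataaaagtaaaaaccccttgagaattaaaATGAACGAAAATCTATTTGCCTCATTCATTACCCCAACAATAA
mt-Rnr2 to mt-Nd1: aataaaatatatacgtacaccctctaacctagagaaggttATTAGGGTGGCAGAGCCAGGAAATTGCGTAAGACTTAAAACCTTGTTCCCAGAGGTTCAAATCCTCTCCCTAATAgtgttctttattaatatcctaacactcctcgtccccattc

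Nuclear copies of mitochondrial genes are a second feature that touches the counts. On chromosome 1, 7 annotated genes on the minus strand between positions 24611535 and 24616197 carry the sequences of 7 neighbouring mitochondrial genes. The first 60 bases of mt-Nd3 (chrM:9459-9518, plus strand) and of its copy Gm28438 (start 24612775, end 24613119) are shown with the single base at which the compared 345 bases differ in capitals; the substitution is T3C, counted from 1 at the 5′ end of mt-Nd3. In mt-Co1 (chrM:6354-6433, plus strand), capitals mark where the stretch shared with Gm29216 begins, and it runs from base 1067 to base 1545 of the gene.
mt-Nd3: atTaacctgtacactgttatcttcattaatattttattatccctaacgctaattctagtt
Gm28438: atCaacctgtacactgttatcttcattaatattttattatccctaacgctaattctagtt
mt-Co1: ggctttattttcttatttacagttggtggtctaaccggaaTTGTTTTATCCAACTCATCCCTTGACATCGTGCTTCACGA

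The other copies held no difference over the bases compared. These were 681 of the 684 bases of mt-Co2 in Gm28661, 678 of the 681 of mt-Atp6 in Gm10925, 783 of the 784 of mt-Co3 in Gm28437, 294 of the 297 of mt-Nd4l in Gm10222 and 876 of the 1378 of mt-Nd4 in Gm28439. A fragment that aligned to more than 1 place was not counted, and reads were 100 bases long. The share of 100-base windows of a gene that also occur whole in an annotated nuclear transcript was 99.5% for mt-Co2, 99.5% for mt-Atp6, 99.9% for mt-Co3, 97.6% for mt-Nd3 and 98.5% for mt-Nd4l. It was 60.8% for mt-Nd4, 30.8% for mt-Co1, 3.19% for mt-Nd2, and 0 for both rRNA genes and for mt-Nd1, mt-Nd5, mt-Nd6, mt-Cytb and mt-Atp8.

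The rRNAs held the highest levels of the genome. Per kilobase of gene, mt-Rnr2, the RNA of the large ribosomal subunit (chrM:1094-2675), averaged 126194 CPM over the 18 libraries and mt-Rnr1, that of the small subunit (chrM:70-1024), averaged 65711, a ratio of 1.92. mt-Nd1, a complex I subunit whose gene follows mt-Rnr2 on the same strand, averaged 1441 CPM per kilobase, so that mt-Rnr2 stood 87.6-fold above it on this scale.

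Among the mRNAs, the levels fell into a high and a low set. mt-Co1, the catalytic subunit of complex IV, averaged 4341 CPM per kilobase, followed by mt-Nd1 at 1441, mt-Cytb, the complex III subunit, at 1364, mt-Nd5 at 846, mt-Nd4 at 518, mt-Nd2 at 227 and mt-Nd6 at 210. The 5 mRNAs with more than 90% of their windows in nuclear transcripts averaged 31.5 (mt-Nd3), 17.3 (mt-Co2), 6.46 (mt-Atp6), 5.82 (mt-Co3) and 3.20 (mt-Nd4l). mt-Co1 thus stood 746-fold above mt-Co3, although both are subunits of the same complex. mt-Atp8, of 204 bases, averaged 11.5 CPM per kilobase with none of its windows in an annotated nuclear transcript; 233 bases lie between Gm10925 and Gm28661, the copies of its neighbours, and their sequence was not analysed here.

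Few counts stand behind the low set. The lowest value in a library was 1 count for mt-Nd4l and 6 for mt-Atp8. Of the 7 genes on chromosome 1, Gm10222 was the 1 with a row in the count tables, and its counts were higher than those of mt-Nd4l in every library. Gm10222 had 87, 107 and 79 counts in control bone, where mt-Nd4l had 19, 10 and 9. In control MC, Gm10222 had 67, 10 and 16 counts and mt-Nd4l had 14, 1 and 12. Whether those counts came from the nuclear or the mitochondrial sequence cannot be told apart.

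**Figure D1:**
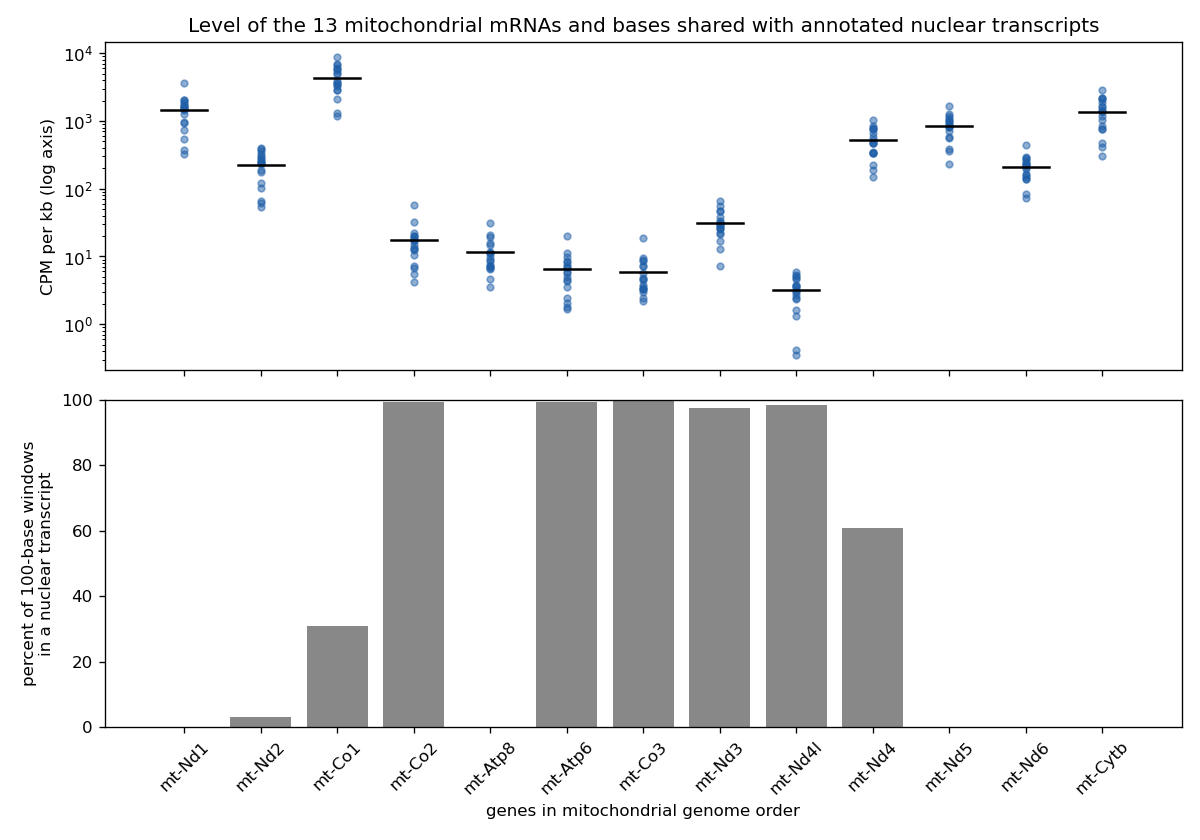
Level of the 13 mitochondrial mRNAs in CPM per kilobase on a log axis (points, 18 libraries; line, mean) beside the percentage of their 100-base windows that occur in an annotated nuclear transcript (bars). The 5 genes above 90% have means of 3.20 to 31.5 CPM per kilobase, and mt-Co1, at 30.8% of windows, has the highest mean, 4341.

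Summed by complex, the mRNA counts came mainly from a few genes in every library. mt-Co1 alone took 46.6 to 62.9% of the mRNA counts, the 7 complex I genes 26.0 to 39.2% and mt-Cytb 9.22 to 14.5%. The pair of ATP synthase genes, mt-Atp6 and mt-Atp8, took 0.0241 to 0.106%. The order of mt-Co1, complex I and mt-Cytb was the same in all 18 libraries. These shares are of counts and were not divided by length. They also lack fragments aligned to more than 1 place. Of the windows of mt-Atp6, mt-Co2 and mt-Co3, 99.5, 99.5 and 99.9% occur in nuclear transcripts, and their part in the low shares was not tested.

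The tRNA genes were close to the floor of the method. All 22 together had 2080 counts in the 18 libraries, and 1218 of these (58.6%) belonged to mt-Tp. The next 4 by mean CPM were mt-Tc (0.885), mt-Tl1 (0.822), mt-Tn (0.614) and mt-Th (0.408), against 5.84 for mt-Tp. Of the 22 genes, 7 reached 10 counts in at least 1 library, and mt-Td and mt-Tk had no count anywhere, which still allows up to 3 counts in a library, or 0.192 to 0.365 CPM.

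Length and position can limit what is counted for a tRNA gene. The tRNA genes are 59 to 75 bases long, shorter than a read, and most abut other genes as mt-Tl1 does in the junction printed above. A fragment that overlapped more than 1 gene was not counted. mt-Tp is the last annotated gene of the circle and mt-Tf the first, with a stretch free of genes between them. Inside the rest, mt-Tn and mt-Tc are the 2 tRNA genes with 10 bases or more free on 1 side, which lie between them. mt-Tf had 66 counts in all (0.302 CPM) and mt-Tl1, with no free base on either side, 170 (0.822 CPM). The part of length and position in the tRNA counts was not tested. Both strands were counted together, so RNA from the opposite strand of mt-Tp or of mt-Nd6, the single mRNA gene on the minus strand, cannot be told apart from the gene's own transcript.

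The 3 classes were next compared between tissues as shares of the library. The 2 rRNAs made up 19.0 to 33.4% of counts in bone, with 33.4, 32.9 and 19.0% in the control libraries and 21.8, 21.7 and 21.8% in the Fgfr2+/S252W libraries. In MC the controls had 25.4, 37.8 and 29.6% and the Fgfr2+/S252W libraries 30.2, 34.7 and 32.3%. In condylar cartilage these were 18.4, 22.4 and 18.7% in controls and 22.3, 23.7 and 26.3% in Fgfr2+/S252W. The rRNA share was lower in condylar cartilage than in MC of the same embryo, as matched by the sample codes, in 6 of 6 embryos, by 0.53 ± 0.17 on the log2 scale (SD, n = 6), and higher in MC than in bone in 5 of 6 (log2 difference 0.36 ± 0.41).

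The mRNA share went the other way. The 13 mRNAs made up 2.53, 1.88 and 1.42% of counts in control bone and 1.85, 1.75 and 1.58% in Fgfr2+/S252W bone. In MC they made up 0.899, 0.329 and 0.518% in controls and 0.415, 0.771 and 0.806% in Fgfr2+/S252W. In condylar cartilage the values were 1.04, 1.18 and 1.31% in controls and 1.29, 1.15 and 1.39% in Fgfr2+/S252W. No MC library reached the lowest bone or condylar library, and the mRNA share was lower in MC than in bone of the same embryo in 6 of 6 embryos, with a log2 difference of -1.63 ± 0.59 (SD). It was also lower in condylar cartilage than in bone in 6 of 6 (-0.56 ± 0.42) and higher in condylar cartilage than in MC in 6 of 6 (1.06 ± 0.64).

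Much of the size of these differences depended on what the share was taken of. Against the nuclear genes without Gm42418, the mRNA difference between MC and bone shrank to -0.67, with 2 of 6 embryos higher in MC, while the rRNA difference grew from 0.36 to 1.32. For condylar cartilage against MC the mRNA difference shrank from 1.06 to 0.19, with 4 of 6 embryos higher in condylar cartilage, and the rRNA difference went from -0.53 to -1.40. The mRNA difference between condylar cartilage and bone was -0.48, with 2 of 6 embryos higher in condylar cartilage. Without control bone replicates 1 and 2, the rRNA difference between MC and bone was 0.59 and positive in 4 of 4 embryos. In bulk samples, fewer cells rich in mitochondria and less mitochondrial RNA per cell cannot be told apart. Class sums are described here without a test, and their 95% binomial (Wilson) intervals cover counting error only; that of the lowest mRNA share, 0.329%, ran from 0.326 to 0.333%.

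The 2 classes were therefore set against each other within a library, which needs no common denominator. The rRNA to mRNA ratio of counts was 13.2, 17.5 and 13.4 in control bone and 11.8, 12.4 and 13.9 in Fgfr2+/S252W bone. In condylar cartilage it was 17.7, 18.9 and 14.2 in controls and 17.3, 20.6 and 19.0 in Fgfr2+/S252W. In MC it was 28.2, 115 and 57.2 in controls and 72.7, 44.9 and 40 in Fgfr2+/S252W. All 6 MC libraries lay above all 12 others, and bone and condylar cartilage overlapped. The share of Gm42418 given above was highest in MC too, and its part in the ratio was not tested.

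Summed tRNA counts were lowest in MC as well. They amounted to 16.9, 12.8 and 8.95 CPM in control bone and 6.99, 9.05 and 7.17 CPM in Fgfr2+/S252W bone. In MC the values were 4.81, 1.68 and 1.99 CPM in controls and 2.33, 2.31 and 3.29 CPM in Fgfr2+/S252W, below every library of the other tissues on this scale. In condylar cartilage they were 26.3, 18.2 and 7.82 CPM in controls and 28.8, 14.8 and 6.96 CPM in Fgfr2+/S252W. The condylar libraries spanned the whole range of bone and beyond it. These are shares of all counts. Taken of nuclear genes without Gm42418, the tRNA difference between MC and bone was smaller, as given in the last section.

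**Figure D2:**
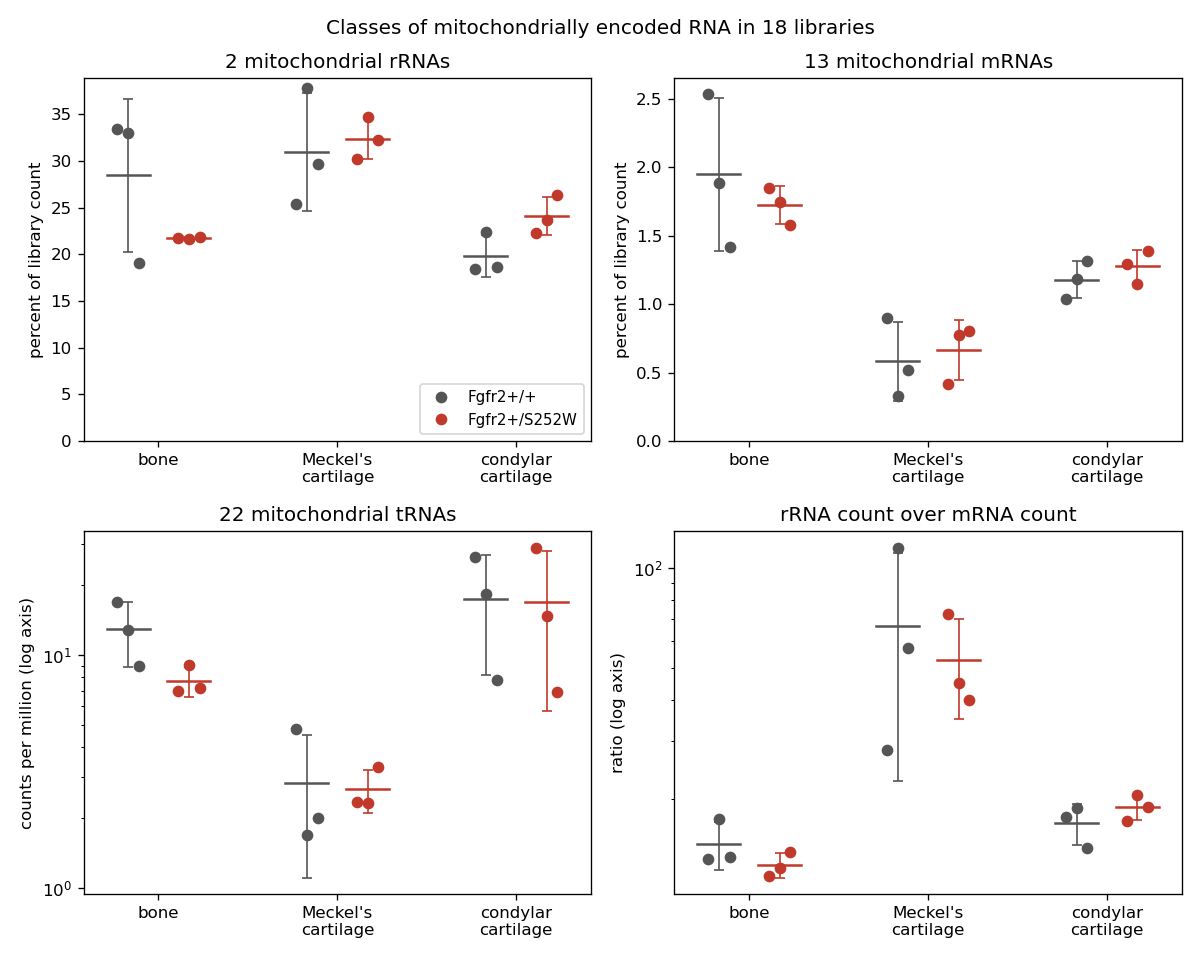
Share of library counts of the rRNAs (%), the mRNAs (%) and the tRNAs (CPM, log axis) and the rRNA to mRNA ratio (log axis) in each library of 3 tissues (points; grey, Fgfr2+/+; red, Fgfr2+/S252W), with the mean (line) and SD (bars, n = 3). The 6 MC libraries lie between 28.2 and 115 in the ratio, above all libraries of bone and condylar cartilage.

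Gene by gene, 25 of the 37 members passed the filter on low values, namely both rRNAs, the 13 mRNAs and 10 of the 22 tRNAs; none of the other 12 tRNAs had more than 8 counts in any library. Levels were scaled with TMM factors, which set the bulk of genes equal between libraries, and tested with limma across 11469 genes. Values below are log2 differences ± SE with limma's adjusted p. The 3 tissue comparisons use the same libraries, so they are not independent of each other.

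Between MC and bone, 8 of the 25 members passed the test, 3 higher and 5 lower in MC, where 51% of all genes tested passed (24.5% higher and 26.6% lower). Both rRNAs were higher in MC. mt-Rnr1 had 28259, 32800 and 55289 TMM-scaled CPM as lowest, median and highest of the 6 bone libraries and 56025, 139652 and 223365 in MC, so the tissues did not overlap, and the difference was 1.92 ± 0.25 (limma adjusted p = 2.97e-06). mt-Rnr2 had 107244, 120223 and 230489 in bone and 179475, 385583 and 511529 in MC. Its difference was 1.30 ± 0.23 (limma adjusted p = 0.000123), with control MC replicate 1 below both muscle-bearing control bone libraries.

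The mRNAs that passed were all lower in MC. mt-Cytb had 1344, 1727 and 2746 TMM-scaled CPM as lowest, median and highest in bone and 634, 871 and 1789 in MC, a difference of -0.88 ± 0.20 (limma adjusted p = 0.000994), with overlap between the tissues. mt-Nd1 had 1015, 1301 and 2925 in bone and 621, 793 and 1421 in MC (-0.71 ± 0.19, limma adjusted p = 0.00463). mt-Nd2 (-0.80 ± 0.19, limma adjusted p = 0.00168) and mt-Nd4 (-0.62 ± 0.18, limma adjusted p = 0.00690), also complex I subunits, passed in the same direction. mt-Co1, the most abundant mRNA, did not pass (-0.54 ± 0.26, limma adjusted p = 0.0948) but did without Fgfr2+/S252W MC 2 (-0.74) or control MC 3 (-0.67). mt-Nd6 did not pass (0.017 ± 0.24, limma adjusted p = 0.959).

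Those mRNA calls rested in part on the muscle-bearing bone libraries. Without control bone replicates 1 and 2, mt-Nd1 (-0.35, limma adjusted p = 0.108), mt-Nd2 (-0.52, limma adjusted p = 0.0522) and mt-Nd4 (-0.42, limma adjusted p = 0.107) no longer passed. mt-Cytb (-0.62, limma adjusted p = 0.0341), mt-Rnr1 (2.12) and mt-Rnr2 (1.66) did. The other 7 mRNAs had differences between -0.61 (mt-Atp6) and 0.18 (mt-Nd4l) in the fit with all libraries and none passed.

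mt-Tp was the tRNA with the clearest difference. Its counts were 109, 62 and 82 in control bone, 43, 87 and 74 in Fgfr2+/S252W bone, 0, 4 and 1 in control MC, 8, 9 and 15 in Fgfr2+/S252W MC, 123, 108 and 60 in control condylar cartilage and 266, 117 and 50 in Fgfr2+/S252W condylar cartilage. In counts all MC libraries were below all others. On the TMM scale MC and bone overlapped, with 2.63 CPM in Fgfr2+/S252W MC 3 and 2.20 in Fgfr2+/S252W bone 1. The difference was -2.84 ± 0.58 between MC and bone (limma adjusted p = 0.000434) and 4.0 ± 0.57 between condylar cartilage and MC (limma adjusted p = 5.62e-06). mt-Tr, the arginine tRNA, also passed as higher in MC than in bone (1.41 ± 0.54, limma adjusted p = 0.0339) with 1 to 5 counts per MC library and 1 to 4 per bone library. The mt-Tr call did not hold when any of 8 libraries was left out, namely bone and MC libraries numbered Fgfr2+/S252W bone 1 and 3, Fgfr2+/S252W MC 2 and 3, control bone 2 and 3 and control MC 1 and 2, where the difference was 1.25 to 1.41. With all libraries kept it did not pass with edgeR (adjusted p = 0.103), DESeq2 (0.158), the library size without mitochondrial genes and Gm42418 (0.0543), sample quality weights (0.0790) or the embryo as a block (limma, 0.0608), and without control bone replicates 1 and 2 it was at 1.48 (limma adjusted p = 0.0853). mt-Tp passed without those 2 libraries (-2.73, limma adjusted p = 0.00229).

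Between condylar cartilage and MC, 7 members passed, 5 higher and 2 lower in condylar cartilage, where 56.2% of all genes did (28.4% higher and 27.8% lower). The rRNAs were lower in condylar cartilage, mt-Rnr1 at -1.38 ± 0.25 (limma adjusted p = 8.10e-05) and mt-Rnr2 at -1.28 ± 0.23 (limma adjusted p = 9.01e-05). For mt-Rnr1 the condylar libraries had 32444, 49145 and 81027 TMM-scaled CPM as lowest, median and highest, and only control MC replicate 1 fell inside that range. That library stood apart from the other 5 of MC. Its cartilage markers summed to 478 CPM, inside the bone range of 286 to 855, its bone markers to 6513 CPM against 1384 to 3411, and its TMM factor was 1.09 against 0.49 to 0.73. Without it mt-Rnr1 was at -1.56 and mt-Rnr2 at -1.47 here, and at 2.12 and 1.51 between MC and bone, and all 4 passed. mt-Nd1 (0.61 ± 0.19, limma adjusted p = 0.0106), mt-Nd2 (0.69 ± 0.19, limma adjusted p = 0.00475) and mt-Cytb (0.51 ± 0.20, limma adjusted p = 0.0334) were higher. mt-Co1 (0.19 ± 0.25) and mt-Nd6 (0.030 ± 0.24) did not pass.

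2 of these calls depended on single libraries and on the method. mt-Cytb no longer passed when any 1 was left out of Fgfr2+/S252W MC 1, Fgfr2+/S252W condylar 1 or 3, control MC 2 or control condylar 2 or 3, where its difference was 0.36 to 0.49. With all libraries mt-Cytb did not pass with edgeR (adjusted p = 0.0657), DESeq2 (0.0529), the library size without mitochondrial genes and Gm42418 (0.0928) or sample quality weights (0.30, adjusted p = 0.196). mt-Tn, the asparagine tRNA, passed at 1.79 ± 0.73 (limma adjusted p = 0.0440) with 3, 0 and 4 counts in control MC, 1, 0 and 2 in Fgfr2+/S252W MC, 42, 14 and 4 in control condylar cartilage and 9, 8 and 4 in Fgfr2+/S252W condylar cartilage. Its call was lost when any 1 of 10 libraries was left out, among them control condylar 1, the library with 42 counts (1.40, limma adjusted p = 0.104). The others were Fgfr2+/S252W bone 1, control bone 1, Fgfr2+/S252W MC 1 and 2, control MC 1 and 2, Fgfr2+/S252W condylar 1 and 2 and control condylar 2, with differences of 1.48 to 1.86. With all libraries it did not pass with the library size without mitochondrial genes and Gm42418 (limma adjusted p = 0.0638) or sample quality weights (0.0981).

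The fewest members passed between condylar cartilage and bone. These were 4, 3 higher and 1 lower in condylar cartilage, where 48.9% of all genes did (23.6% higher and 25.2% lower), and 3 of them were tRNAs. mt-Tp was higher by 1.16 ± 0.28 (limma adjusted p = 0.00173) with overlapping counts. mt-Tn was higher by 2.05 ± 0.65 (limma adjusted p = 0.0128), and its bone counts were 4, 12 and 4 in controls and 2, 8 and 0 in Fgfr2+/S252W. mt-Ts2, a serine tRNA with at most 8 counts in a library, was higher by 1.98 ± 0.68 (limma adjusted p = 0.0200).

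The rRNAs and most mRNAs did not pass in that comparison. mt-Nd4 was the single member lower in condylar cartilage (-0.46 ± 0.18, limma adjusted p = 0.0348), and without control bone replicates 1 and 2 it no longer passed (-0.26, limma adjusted p = 0.322). Its call was also lost when any 1 was left out of Fgfr2+/S252W bone 1, 2 or 3, control bone 1, Fgfr2+/S252W MC 3, Fgfr2+/S252W condylar 2 or control condylar 1, where the difference was -0.47 to -0.34. With all libraries mt-Nd4 did not pass with edgeR (adjusted p = 0.0604), DESeq2 (0.0632) or the embryo as a block (limma, 0.0520). mt-Ts2 lost its call without Fgfr2+/S252W condylar 1, Fgfr2+/S252W bone 3 or control bone 2 (1.56 to 1.75), with DESeq2 (adjusted p = 0.0987) and without control bone replicates 1 and 2 (1.85, limma adjusted p = 0.0681). mt-Rnr1 (0.54 ± 0.25, limma adjusted p = 0.0745), mt-Rnr2 (0.024 ± 0.23, limma adjusted p = 0.940), mt-Nd1 (-0.099 ± 0.19), mt-Co1 (-0.34 ± 0.27), mt-Cytb (-0.38 ± 0.20) and mt-Nd6 (0.047 ± 0.22) did not pass. With 1 library left out, mt-Rnr1 did pass without control bone 1 (0.68), control MC 1 (0.56) or control MC 2 (0.56), and mt-Cytb without control bone 3 (-0.51). With a library size that left out the mitochondrial genes and Gm42418 and no TMM factors, the median of all genes moved to -0.21 in this comparison, with 1868 genes higher and 3872 lower against 2712 and 2891 with TMM, and to -0.12 between MC and bone.

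**Figure D3:**
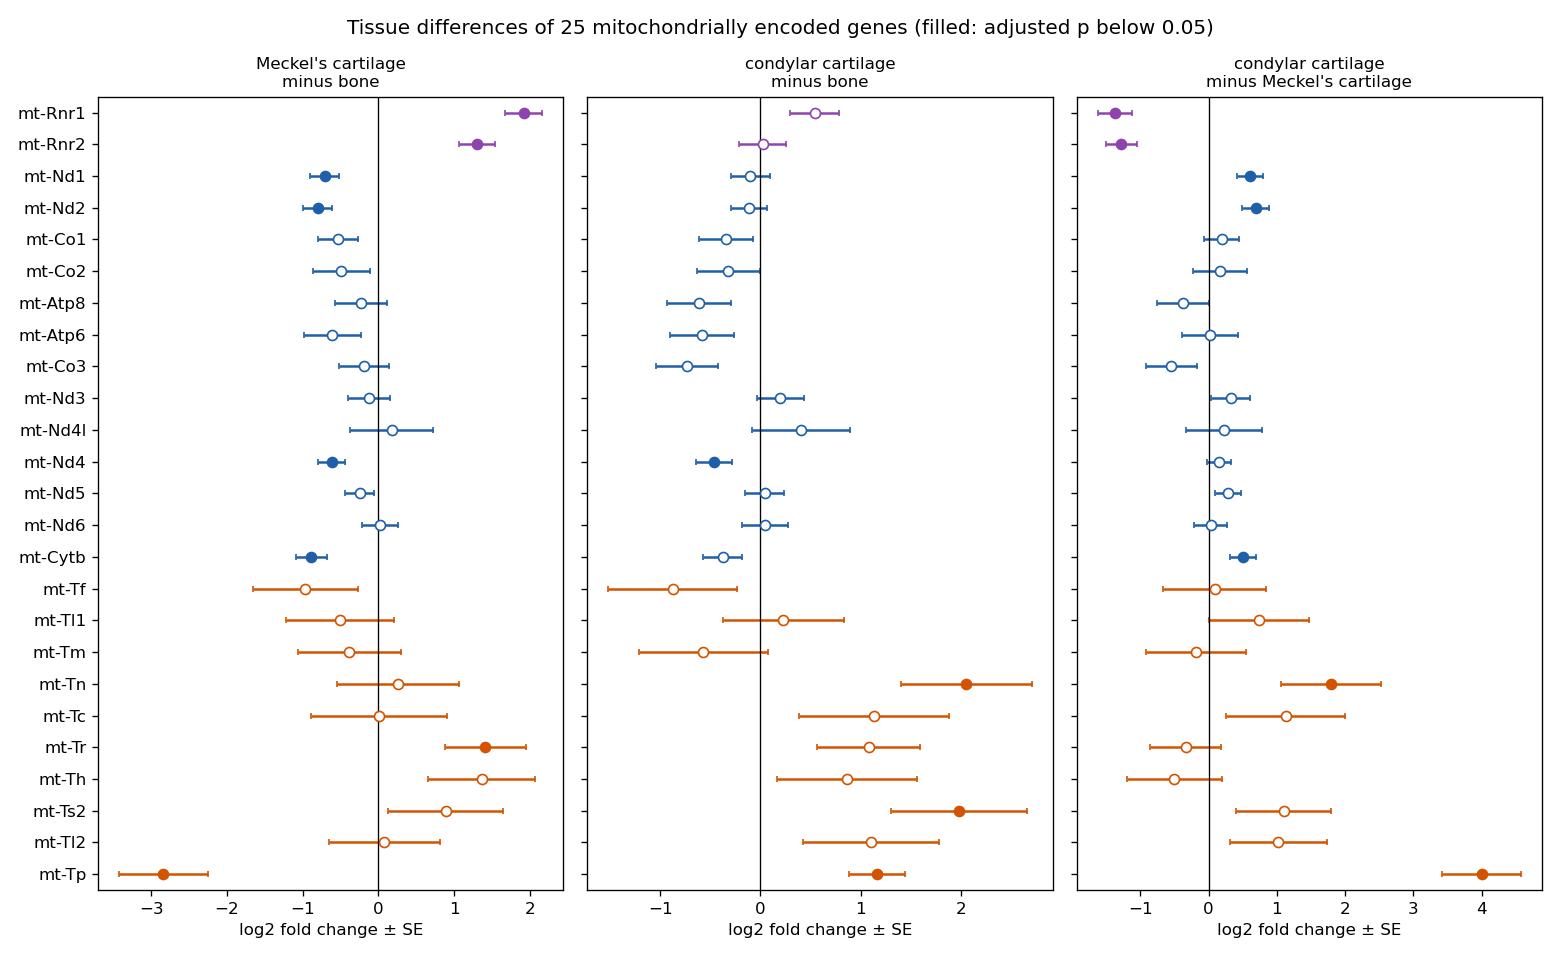
Log2 difference ± SE (limma) of the 25 members tested in the 3 tissue comparisons on the TMM scale (purple, rRNA; blue, mRNA; orange, tRNA; filled, adjusted p below 0.05). The rRNAs lie at 1.30 and 1.92 between MC and bone and at -1.28 and -1.38 between condylar cartilage and MC.

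Scaling each library to its own 13 mRNAs in place of TMM gives levels relative to mitochondrial mRNA. On this scale the median of all genes was 0.51 between MC and bone, -0.25 between condylar cartilage and MC and 0.27 between condylar cartilage and bone. Between MC and bone, 40.4% of all genes passed (33.6% higher and 6.87% lower) and 5 of 25 members did, 4 higher and 1 lower. mt-Rnr1 was higher in MC by 2.45 ± 0.28 (limma adjusted p = 4.67e-11) and mt-Rnr2 by 1.85 ± 0.28 (limma adjusted p = 1.97e-07), both beyond the median of all genes, while mt-Tp was lower at -2.25 ± 0.59 (limma adjusted p = 0.00149). mt-Tr (1.95 ± 0.74) and mt-Th, the histidine tRNA (1.91 ± 0.73), also passed on few counts, and single libraries decided both calls. mt-Tr no longer passed without Fgfr2+/S252W bone 1 or 3, Fgfr2+/S252W MC 3, control bone 2 or control MC 2 (1.76 to 1.92), and mt-Th without Fgfr2+/S252W bone 1, Fgfr2+/S252W MC 1, control bone 2 or control MC 2 or 3 (1.72 to 1.91). Without control bone replicates 1 and 2 neither mt-Tr (1.73, limma adjusted p = 0.155) nor mt-Th (2.12, limma adjusted p = 0.108) passed, and mt-Tr did not pass with edgeR (adjusted p = 0.0821) or DESeq2 (0.0623).

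None of the 13 mRNAs passed on that scale in limma without sample weights, and the calls depended on the method. The 13 mRNAs make up the scale themselves, and mt-Co1 alone took 46.6 to 62.9% of it. Differences of the most abundant mRNAs are therefore damped by construction. mt-Nd6 between MC and bone was at 0.59 ± 0.28 (limma adjusted p = 0.0828) and passed with DESeq2 (0.58, adjusted p = 0.0188), as did mt-Co3 between condylar cartilage and MC (-0.80, adjusted p = 0.0421). With sample quality weights, 3 mRNAs passed between MC and bone (mt-Nd6 higher, mt-Atp6 and mt-Cytb lower), 3 between condylar cartilage and MC (mt-Nd1 and mt-Nd2 higher, mt-Co3 lower) and 8 between condylar cartilage and bone, 4 higher (mt-Nd1, mt-Nd3, mt-Nd5 and mt-Nd6) and 4 lower (mt-Co2, mt-Atp8, mt-Atp6 and mt-Co3). Those weights called 6601, 6134 and 8108 of all 11469 genes in these comparisons. Between condylar cartilage and MC, 3 members passed, where 40.4% of all genes did. These were mt-Rnr1 (-1.65 ± 0.28, limma adjusted p = 1.26e-06), mt-Rnr2 (-1.57 ± 0.28, limma adjusted p = 4.41e-06) and mt-Tp (3.63 ± 0.58, limma adjusted p = 2.92e-07). Between condylar cartilage and bone, where 31.7% of all genes passed (20.3% higher), mt-Rnr1 (0.80 ± 0.28, limma adjusted p = 0.0232), mt-Tn (2.25 ± 0.68), mt-Ts2 (2.19 ± 0.78) and mt-Tp (1.38 ± 0.37) were higher, and none of these 4 passed without control bone replicates 1 and 2, where mt-Rnr1 was at 0.73. Of single libraries, Fgfr2+/S252W bone 1, control bone 2 and control condylar 2 each ended the call of mt-Rnr1 when left out (0.74 to 0.77), and these last 2, Fgfr2+/S252W bone 3 and Fgfr2+/S252W condylar 1 and 2 that of mt-Ts2 (1.75 to 2.11). mt-Ts2 did not pass with DESeq2 either (2.72, adjusted p = 0.0815).

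Libraries were matched to embryos by the codes in the labels, which do not say outright that equal codes are 1 embryo. Ratios of single gene pairs were tested within embryos so matched with an exact two-sided permutation test (sign flips over 6 embryos, 12 tests, smallest possible p = 0.03125, which becomes 0.0625 after Benjamini-Hochberg adjustment here). The ratio of mt-Rnr2 to mt-Rnr1 counts was 4.09, 6.68 and 3.80 in control bone and 4.21, 3.41 and 3.74 in Fgfr2+/S252W bone. It was 2.14 to 3.47 in MC and 2.42 to 3.52 in condylar cartilage. The ratio was lower in MC than in bone in 6 of 6 embryos (log2 difference -0.60, SD 0.38) and lower in condylar cartilage than in bone in 6 of 6 (-0.51, SD 0.35), each with exact permutation p = 0.03125 and adjusted p = 0.0625, so neither passed.

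The ratio of mt-Nd1 to mt-Rnr2, the neighbours in the junction printed above, moved further. It was 0.00676 to 0.0129 in bone, 0.00627 to 0.0106 in condylar cartilage and 0.00129 to 0.00484 in MC, and no MC library overlapped the other tissues. Between MC and bone the log2 difference was -2.0 (SD 0.60, lower in 6 of 6 embryos) and between condylar cartilage and MC 1.88 (SD 0.93, higher in 6 of 6), both with exact permutation p = 0.03125 and adjusted p = 0.0625. Without pairing, an exact permutation test of 6 against 6 libraries gave adjusted p = 0.0130 for both and also for both mt-Rnr2 to mt-Rnr1 differences. The ratio of mt-Cytb to mt-Nd1 was lower in condylar cartilage than in bone in 6 of 6 embryos (-0.28). That of mt-Nd6 to mt-Nd5, which lie on opposite strands, was higher in MC than in bone in 6 of 6 (0.27). The exact permutation adjusted p was 0.0625 for each. In Fgfr2+/S252W embryos 1 and 2 the mt-Nd6 to mt-Nd5 ratio was nearly equal in MC and bone.

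Whether the Fgfr2 mutation changed these genes was asked in each tissue. In limma, with all libraries kept and weighted equally, no member passed between the genotypes in any tissue. limma called 0.0872% of all genes in bone (0.0349% higher and 0.0523% lower in Fgfr2+/S252W), 0% in MC and 0% in condylar cartilage. edgeR also called none of the 25 in any tissue, and DESeq2 called 1, mt-Tp in MC. With sample quality weights limma called 2 members lower in Fgfr2+/S252W bone, mt-Nd3 (-1.17, adjusted p = 0.00452) and mt-Rnr2 (-0.70, adjusted p = 0.0488), among 589 of all genes. At an unadjusted limma p below 0.05 there were 2 members in bone (932 of all genes), 4 in MC (1761) and 0 in condylar cartilage (351). The class shares of the genotypes overlapped in every tissue.

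In bone, 24 of the 25 members had values below 0 in Fgfr2+/S252W, with a median log2 difference of -0.59, where the median of all genes was -0.00074. mt-Rnr1 was at -0.27 ± 0.35, mt-Rnr2 at -0.58 ± 0.33, mt-Nd1 at -0.44 ± 0.27, mt-Co1 at -0.30 ± 0.39, mt-Cytb at -0.23 ± 0.28 and mt-Nd6 at -0.59 ± 0.31 (limma adjusted p = 0.660 to 0.933). The control bone libraries with muscle transcripts were the highest: mt-Cytb had 2746, 1985 and 1344 TMM-scaled CPM in control bone and 1707, 1748 and 1520 in Fgfr2+/S252W bone. Control replicate 3 was thus the lowest of the 6 libraries, as it was for mt-Rnr1, mt-Rnr2, mt-Nd1 and mt-Co1. Without control replicates 1 and 2 it alone stands for control bone, so values above 0 for these genes follow from which library remains. The differences were then 0.16 for mt-Rnr1, 0.15 for mt-Rnr2, 0.28 for mt-Nd1, 0.23 for mt-Co1, 0.30 for mt-Cytb and 0.061 for mt-Nd6. Other transcripts moved with the genotype in bone too. The 7 red blood cell genes summed to 1521 to 1906 CPM in control bone and 468 to 884 in Fgfr2+/S252W bone, and the 5 of them tested had a median of -1.57 without passing (5 with an unadjusted limma p below 0.05). The 7 macrophage and osteoclast genes summed to 810 to 1051 CPM in control bone and 1516 to 1958 in Fgfr2+/S252W bone. Of the 6 tested, 4 had values above 0 and 2 below, and the 1 that passed, Lyz2, was lower in Fgfr2+/S252W bone (-1.47, limma adjusted p = 0.0483). The 7 noncoding RNAs taken as signs of RNA quality, Gm42418 among them, summed to 89826 to 97947 CPM in control bone and 59859 to 70267 in Fgfr2+/S252W bone. The 10 cartilage markers summed to 286 to 650 CPM in control bone and 663 to 855 in Fgfr2+/S252W bone. Of the 9 tested, 5 lay above and 4 below 0, and none passed. These sums did not overlap between the genotypes, and their part in the values of the members was not tested.

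mt-Nd3, a complex I subunit, had the smallest p in bone. Its TMM-scaled CPM was 19.6, 15.6 and 9.49 in control bone and 6.45, 6.96 and 6.10 in Fgfr2+/S252W bone, without overlap, and the difference was -1.11 ± 0.31 (limma adjusted p = 0.260). Without control bone replicate 3 it passed (-1.43 ± 0.31, limma adjusted p = 0.0399), and without control bone replicates 1 and 2 it was at -0.54 against the 1 control library left. In the other tissues its genotype difference was -0.66 ± 0.45 in MC and 0.034 ± 0.34 in condylar cartilage. 97.6% of its windows occur in a nuclear transcript. mt-Co3 (-0.79 ± 0.36, limma adjusted p = 0.605), with 99.9% of its windows shared, was the second member at an unadjusted p below 0.05 in bone.

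In MC, values above and below 0 were even, 12 and 13. mt-Tp, with 0, 4 and 1 counts in controls and 8, 9 and 15 in Fgfr2+/S252W, did not overlap and was at 3.26 ± 1.09 (limma adjusted p = 0.183). With DESeq2 it was at 2.90 with adjusted p = 0.0168. mt-Nd1 (0.61 ± 0.27), mt-Cytb (0.63 ± 0.28) and mt-Nd4 (0.55 ± 0.26) were the other members at an unadjusted p below 0.05, with limma adjusted p of 0.291 to 0.319. mt-Rnr1 (0.43 ± 0.36), mt-Rnr2 (0.069 ± 0.33), mt-Co1 (0.25 ± 0.35) and mt-Nd6 (-0.10 ± 0.36) had limma adjusted p of 0.588 to 0.942. All 9 cartilage markers tested lay above 0 in MC (median 1.18, 5 with an unadjusted limma p below 0.05). Of 6 macrophage and osteoclast genes tested, 4 lay above and 2 below 0, with 5 at such a p. None of either list passed, and their part in the values of the members was not tested. The controls here include MC replicate 1, whose markers stood apart.

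In condylar cartilage 16 values were above and 9 below 0, and the smallest limma adjusted p was 0.998. mt-Rnr1 was at 0.45 ± 0.35, mt-Rnr2 at 0.39 ± 0.33, mt-Nd1 at 0.11 ± 0.27, mt-Co1 at 0.25 ± 0.37, mt-Cytb at 0.23 ± 0.28 and mt-Nd6 at -0.012 ± 0.32. Differences of the genotype effect between tissues were tested as well, and limma called 0 of 25 members in each of the 3 comparisons, where 0.0523% of all genes passed between bone and MC and 0% in the others. At an unadjusted limma p below 0.05 there were 5 members between bone and MC (1250 of all genes), 3 between bone and condylar cartilage (344) and 1 between condylar cartilage and MC (1091); edgeR called none, and DESeq2 called mt-Tp between bone and MC (-3.63, adjusted p = 0.0154). Scaled to the mitochondrial mRNAs, no member passed between genotypes, where 0% of all genes did; 1 member in MC (971 of all genes) and 0 in bone (303) or condylar cartilage (155) had an unadjusted limma p below 0.05, and edgeR and DESeq2 called none. Sample quality weights on that scale called 9 members lower in Fgfr2+/S252W bone, namely mt-Rnr2, mt-Atp8, mt-Atp6, mt-Co3, mt-Nd3, mt-Tl1, mt-Tm, mt-Tn and mt-Tc, where 5068 of all genes were higher and 598 lower. They also called 2 members between the genotype effects of bone and MC (mt-Nd4l and mt-Tp) and 4 between those of bone and condylar cartilage (mt-Co3, mt-Nd3, mt-Tl1 and mt-Tl2).

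Gene pair ratios were also compared between the genotypes, but 3 against 3 libraries cannot give a p below 0.1, so no ratio could pass. The ratio of mt-Nd6 to mt-Nd5 was 0.0952, 0.0879 and 0.0996 in control MC and 0.0656, 0.0768 and 0.0686 in Fgfr2+/S252W MC. The groups did not overlap, and the log2 difference of -0.42 had exact permutation p = 0.1, the smallest that 3 against 3 libraries can give, and adjusted p = 0.6 over 12 tests. The corresponding difference was -0.085 in bone and -0.30 in condylar cartilage.

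**Figure D4:**
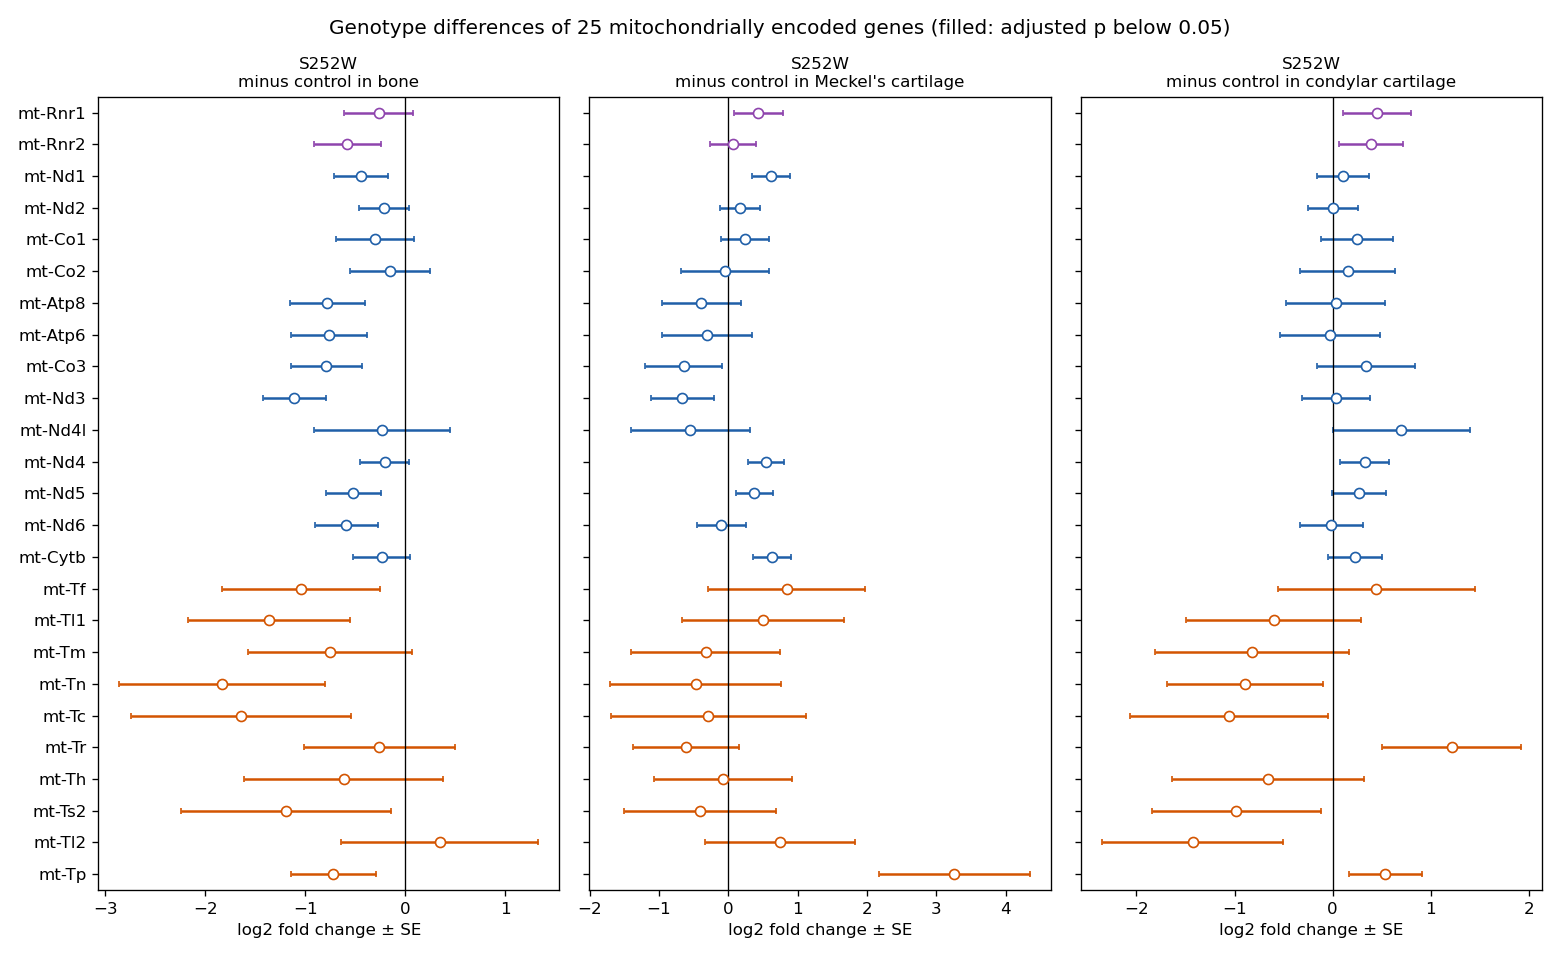
Log2 difference ± SE (limma) between Fgfr2+/S252W and control libraries of the 25 members tested, by tissue (purple, rRNA; blue, mRNA; orange, tRNA). No point is filled, since none had an adjusted p below 0.05; in bone 24 of 25 lie below 0, and in MC mt-Tp lies at 3.26.

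Nuclear genes whose products work with the mitochondrial ones were counted on the TMM scale. Subunits of the respiratory complexes were lower in MC than in bone in 26 of 36 tested for complex I (median -0.74), 9 of 9 for complex III (-1.23), 11 of 11 for complex IV (-1.24) and 12 of 16 for complex V (-0.99), and none was higher. The median of all genes was -0.021, and 26.6% of all genes were lower. Among them were Atp5b, the catalytic subunit of the ATP synthase (-1.68 ± 0.14, limma adjusted p = 1.54e-08), Uqcrfs1, the Rieske protein of complex III (-1.69 ± 0.19), Cox4i1 (-1.33 ± 0.15) and Ndufa13 (-1.29 ± 0.15). Between condylar cartilage and MC, 19 of 36, 8 of 9, 11 of 11 and 12 of 16 were higher and none lower, with medians of 0.63, 0.81, 0.98 and 0.77, where 28.4% of all genes were higher and 27.8% lower. Markers of other cell types differed between these tissues as well. The 5 endothelial genes summed to 212 to 336 CPM in bone, 10.3 to 66.2 in MC and 6.50 to 23.6 in condylar cartilage, and the 7 macrophage and osteoclast genes to 810 to 1958, 47.0 to 141 and 19.5 to 30.2. Of those tested, 4 of 4 and 5 of 6 were lower in MC than in bone, and 4 of 4 and 6 of 6 were lower in condylar cartilage than in MC. The 7 red blood cell genes summed to 468 to 1906 CPM in bone, 78.2 to 241 in MC and 41.7 to 232 in condylar cartilage, with 3 of 5 lower in each of the same comparisons. The 7 noncoding RNAs taken as signs of RNA quality summed to 59859 to 97947 CPM in bone, 244438 to 397790 in MC and 113593 to 208224 in condylar cartilage. The part of these RNAs and of the cell type markers in the values of the mitochondrial genes and of the nuclear genes, here and in the lists below, was not tested.

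Transcripts were also counted for the proteins of the mitochondrial ribosome, which bind the mitochondrial rRNAs. Of the genes of the large subunit, 27 of 47 were lower and 1 higher in MC (median -0.64), and of the small subunit 14 of 32 were lower and 1 higher (-0.45), where 26.6% of all genes were lower and 24.5% higher. In condylar cartilage 18 of 47 and 14 of 32 were higher than in MC, and none lower, where 28.4% of all genes were higher and 27.8% lower. Between condylar cartilage and bone both directions occurred in each of these lists, with 9 lower and 3 higher for the large subunit and 4 of each for the small one; over all genes 48.9% passed, 25.2% lower and 23.6% higher.

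Regulators of the mitochondrial genome gave mixed results. Of 9 transcription genes, Polrmt, the mitochondrial RNA polymerase, was higher in MC than in bone (0.58 ± 0.22, limma adjusted p = 0.0316), and Tfam, which packages the genome and starts its transcription (-0.82 ± 0.24, limma adjusted p = 0.00812), and Tefm, the elongation factor (-0.81 ± 0.29), were lower. Between condylar cartilage and bone, where 48.9% of all genes passed, 3 of the 9 did, Tfam (-0.74 ± 0.20, limma adjusted p = 0.00489) and Mterf3 (-0.43 ± 0.18) lower and Tfb1m (1.03 ± 0.32) higher in condylar cartilage. In condylar cartilage against MC, where 56.2% of all genes passed, 2 of the 9 did, Polrmt lower (-0.65 ± 0.23) and Mterf2 higher (0.87 ± 0.34). Lrpprc, which stabilises mitochondrial mRNAs, did not pass in any of the tissue comparisons (-0.10 ± 0.18, -0.22 ± 0.19 and -0.32 ± 0.17). Of 31 processing and stability genes, 7 were lower in MC than in bone and 1 higher, where 51% of all genes passed (24.5% higher and 26.6% lower). Grsf1, which binds mitochondrial RNA (-0.81 ± 0.15), and Trmt10c, a subunit of the enzyme that cuts the 5′ ends of mitochondrial tRNAs (-1.50 ± 0.31), were among the lower ones.

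Where 51% of all genes passed, of 9 replication genes 1 was lower in MC than in bone (Ssbp1, the single-strand binding protein, -0.77 ± 0.24), of 6 regulators of mitochondrial biogenesis 2 were higher and 2 lower, and of 18 mitochondrial aminoacyl-tRNA synthetases 3 were higher and 2 lower, with Lars2, the leucine enzyme, at 3.35 ± 0.23. Lars2 moved with Gm42418, the locus of cytosolic rRNA fragments, in the tissue comparisons: it was at 3.35, -2.10 and 1.25 between MC and bone, condylar cartilage and MC, and condylar cartilage and bone, where Gm42418 was at 3.24, -1.91 and 1.33. The part of such fragments in the counts of Lars2 was not tested. Between the genotypes no gene of any of these lists passed in any tissue. Polrmt in MC had 1.21 ± 0.34 (limma adjusted p = 0.125).

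The nuclear genes most like the mitochondrial mRNA sum over the 18 libraries, by Pearson's r of log2 TMM-scaled levels, were Bloc1s1 (0.799), Dnajc19 (0.799) and Nbeal1 (0.794). Of the members, mt-Co1 (0.974), mt-Cytb (0.943), mt-Nd4 (0.917), mt-Nd5 (0.871) and mt-Nd1 (0.818) followed the sum closely, as parts of it. The rRNAs did not, with r of -0.144 for mt-Rnr1 and -0.107 for mt-Rnr2. All points share the tissues and the TMM factors, so these values describe the libraries only.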

How the data were processed

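RNA was extracted from laser-captured tissue, amplified (NuGEN Ovation RNA-Seq System v2) and sequenced as pairs of 100-base reads in 18 libraries. Per the file headers, the authors deposited raw counts of fragments per gene made with featureCounts v1.5.0-p1, without regard to strand, from STAR alignments to mm10 and an Ensembl GRCm38.75 annotation; fragments aligned to several places or overlapping several genes were not counted, which can lower the counts of genes with nuclear copies and of short adjoining genes; by how much was not tested. Groups came from the labels. The members and gene lists were chosen with earlier results of these data known.

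A gene was tested when its FPKM exceeded 1 in 50% of libraries or more. Counts were scaled by TMM (edgeR 4.0.16) and fitted with limma 3.58.1 (voom, R 4.3.3) as 6 group means, and p-values were adjusted by Benjamini-Hochberg over 11469 genes at 0.05. A second fit used the summed counts of the 13 mitochondrial mRNAs as library size. DESeq2 1.42.0, edgeR's quasi-likelihood test, other scalings, filters, weights and blocks, and leaving out libraries were alternatives, and the fits were tested on simulated data. Both rRNAs, all 13 mRNAs, the 5 tRNAs of highest mean CPM, members past the threshold and up to 3 nuclear genes per list were named. Class sums and likeness were described without a test, and ratios were tested by exact permutation.

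Libraries were matched to embryos across tissues by the sample codes, an inference that the labels do not state. Over all genes kept, the deviations from group means of libraries so matched correlated at -0.08 to 0.11, and the paired tests and counts of embryos rest on this matching. Libraries from separate embryos are the replicates.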

Additional observations from a re-analysis of the deposited data

Results flagged for a closer look

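The rRNA share of condylar cartilage against bone went opposite ways in the genotypes. In all 3 Fgfr2+/S252W embryos the share was higher in condylar cartilage, and in all 3 control embryos it was lower, by 18.7 against 19.0% in control replicate 3. The mean log2 difference between the genotypes was 0.626, and it was not tested. Control bone replicates 1 and 2, which had the highest rRNA shares of bone (33.4 and 32.9%), are the libraries with 973 and 941 CPM of muscle transcripts, and the part of those transcripts in the difference was not tested.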

How the results depend on the processing

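Under all alternatives run, including each of the 18 libraries left out, mt-Rnr1, mt-Rnr2 and mt-Tp kept their direction and passed on the TMM scale between MC and bone and between condylar cartilage and MC. Without a filter the median of all genes moved to 0.36 between MC and bone, and mt-Rnr1 (1.27) and mt-Rnr2 (0.80) lay nearer to it. Counts of members called moved by more than 1.5 times as follows. The fits without a filter, on either scale, tested every gene with a count. They took in tRNAs with at most 8 counts in any library, so their counts are not out of 25. Without a filter, 9 were higher between MC and bone, 4 lower between condylar cartilage and MC, and 5 higher and 2 lower between condylar cartilage and bone. With a library size without mitochondrial genes and Gm42418, 3 were higher between condylar cartilage and MC and 4 lower between condylar cartilage and bone. Sample quality weights gave 3 and 6 there, and 2 lower in Fgfr2+/S252W bone, mt-Nd3 and mt-Rnr2. DESeq2 called 1 in MC between genotypes and 1 between the genotype effects of bone and MC. Without both muscle-bearing control bone libraries, an alternative added after seeing the data, 2 were lower between MC and bone and 0 between condylar cartilage and bone. Relative to the mitochondrial mRNAs, no filter gave 13 higher between MC and bone and 5 lower between condylar cartilage and MC; weights gave 3 lower between MC and bone, 9 lower in Fgfr2+/S252W bone, 4 higher between condylar cartilage and MC, and 12 higher and 5 lower between condylar cartilage and bone; leaving out the muscle-bearing libraries gave 2 and 0 higher between MC and bone and between condylar cartilage and bone. With 1 library left out, called members ranged from 0 to 1 (lower in Fgfr2+/S252W bone), 3 to 5 (higher between condylar cartilage and MC), 0 to 3 (lower between condylar cartilage and bone) and, relative to the mRNAs, 2 to 4, 1 to 2 and 2 to 5 (higher between MC and bone, condylar cartilage and MC, condylar cartilage and bone). The cause was not tested in any of these cases.

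With the embryo as replicate block, 0 members were lower between condylar cartilage and bone (mt-Nd4 at adjusted p = 0.0520 with limma), and mt-Tr no longer passed between MC and bone (0.0608). Replicate numbers of the genotypes share only a number: deviations of libraries with equal numbers correlated between -0.13 and 0.27, and the replicate block called 0 members in each genotype comparison. Without pairing, 4 ratios passed with the same log2 differences (-0.60 and -0.51 for mt-Rnr2 to mt-Rnr1, -2.0 and 1.88 for mt-Nd1 to mt-Rnr2).

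Values near 0 changed sign. mt-Nd6 between MC and bone was -0.082 (library size), -0.029 (filterByExpr) and -0.15 (no filter), between condylar cartilage and MC -0.062 (edgeR), -0.068 (DESeq2), -0.082 (library size) and -0.10 (weights), and between condylar cartilage and bone -0.014 (edgeR), -0.16 (library size) and -0.0995 (weights). mt-Rnr2 between condylar cartilage and bone was -0.0073 (edgeR), -0.19 (library size), -0.13 (no filter) and -0.077 (weights), mt-Co1 between condylar cartilage and MC -0.098 (weights), and mt-Nd1 between condylar cartilage and bone 0.26 (without the muscle-bearing libraries). Between the genotypes in MC, mt-Rnr2 was -0.037 (edgeR), -0.029 (DESeq2) and -0.11 (weights) and mt-Nd6 0.0085 (DESeq2), 0.038 (library size) and 0.024 (weights); mt-Nd6 in condylar cartilage was 0.028 (no filter). Without the muscle-bearing libraries control bone is 1 library, assumed to vary like the other groups, and the genotype values in bone were 0.16 (mt-Rnr1), 0.15 (mt-Rnr2), 0.28 (mt-Nd1), 0.23 (mt-Co1), 0.061 (mt-Nd6) and 0.30 (mt-Cytb), and those of the class shares 0.19 (rRNA), 0.28 (mRNA) and -0.22 (tRNA). Shares taken of counts without Gm42418 or of nuclear counts differed by 0.84 and 1.32 (rRNA, MC and bone) and -0.88 and -1.40 (rRNA, condylar cartilage and MC); nuclear counts gave 0.31 (rRNA, genotypes in MC), -0.67 and 0.19 (mRNA, MC and bone, condylar cartilage and MC) and -0.97 (tRNA, MC and bone).

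With 1 library left out, mt-Nd6 ranged from -0.15 to 0.20 (MC and bone), -0.13 to 0.21 (condylar cartilage and MC), -0.12 to 0.21 (condylar cartilage and bone), -0.40 to 0.30 (genotypes in MC) and -0.19 to 0.092 (genotypes in condylar cartilage). mt-Rnr2 ranged from -0.16 to 0.12 (condylar cartilage and bone) and -0.39 to 0.35 (genotypes in MC), mt-Nd1 from -0.28 to 0.11 (condylar cartilage and bone), and mt-Co1 from -0.012 to 0.42 (condylar cartilage and MC), -0.13 to 0.73 (genotypes in MC) and -0.086 to 0.49 (genotypes in condylar cartilage). In bone, genotype values of mt-Rnr1 ranged from -0.47 to 0.0086 and of mt-Cytb from -0.50 to 0.015. Ratios ranged from -0.013 to 0.20 and -0.20 to 0.065 (mt-Rnr2 to mt-Rnr1, condylar cartilage and MC, genotypes in condylar cartilage), -0.093 to 0.37 (mt-Nd1 to mt-Rnr2, genotypes in bone), -0.19 to 0.0018, -0.12 to 0.25 and -0.035 to 0.33 (mt-Cytb to mt-Nd1, condylar cartilage and MC, genotypes in MC and in condylar cartilage) and -0.058 to 0.073 and -0.20 to 0.028 (mt-Nd6 to mt-Nd5, condylar cartilage and bone, genotypes in bone).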
